A study of Mus musculus with 8 samples.

Results

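Protease inhibitors of the serpin family and the unrelated inhibitor Slpi were followed here in mouse brainstem through 7 genes, namely Serpina1b, Serpina1e, Serpina11, Serpina3i and Serpina3n on chromosome 12, Serpinb6d on chromosome 13 and Slpi on chromosome 2. Each gene was read by 1 probe, and the 7 probes were taken from 60804 probes in the authors' table of a one-color Agilent array for lncRNAs and mRNAs. They were chosen by their strain difference on these same arrays, so the differences between the strains are described without a test. All of them met the study's criterion, and Serpina3n, with a 2.07-fold difference, lay nearest to its limit of 2-fold. Serpin genes outside the criterion were not analysed here.

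The study compared whole brainstem of DBA/1 mice, an inbred strain prone to audiogenic seizures and to respiratory arrest after them, with that of C57BL/6 mice. Each strain was represented by 4 male mice, 5 weeks old, with 1 mouse per array. The sources name no transgene, and no agent other than the anaesthetic isoflurane, in either strain, and by the study's methods the mice were not tested for seizures before the tissue was taken. Whole brainstem holds neurons, glia, vessels and the adhering membranes, so fewer cells of a type and less RNA per cell cannot be told apart. Whether the strains differ in sequence under a probe, or in the number of copies of a gene, was not tested.

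Serpins are proteins that present a reactive loop to a protease as bait, are cut by it and trap the enzyme in an inactive complex. The Serpina1 genes encode the mouse forms of alpha-1 antitrypsin, which in humans inhibits neutrophil elastase and is made mostly by the liver. The Serpina3 genes descend from an ancestor shared with human alpha-1 antichymotrypsin, and Serpina3n is known in brain as a gene of reactive astrocytes. Serpinb6d belongs to clade B, whose members act mainly inside cells. Slpi, the secretory leukocyte peptidase inhibitor, is a small protein of mucosal secretions that inhibits neutrophil elastase and cathepsin G by a mechanism unlike that of the serpins.

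The probe sequences are shown because they decide which transcripts each value can report. The probes of Serpina1b, Serpina3i, Serpina3n and Serpinb6d held at least 1 reading frame without a stop codon and no polyadenylation hexamer, and are given whole, in lower case, 5′ to 3′.
Serpina1b: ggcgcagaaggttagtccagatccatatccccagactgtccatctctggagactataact
Serpina3i: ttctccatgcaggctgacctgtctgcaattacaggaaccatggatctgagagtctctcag
Serpina3n: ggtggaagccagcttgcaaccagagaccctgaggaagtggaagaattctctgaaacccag
Serpinb6d: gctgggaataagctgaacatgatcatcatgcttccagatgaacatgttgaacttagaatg

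The probes of Serpina1e, Serpina11 and Slpi held a polyadenylation hexamer, AATAAA or ATTAAA, and a stretch of 30 bases around it is given with the hexamer in capitals. In Slpi 2 hexamers overlapped.
Serpina1e: tgaattgggttcctttccATTAAAcacggg
Serpina11: tgcttcagttctAATAAAtctgaatttggc
Slpi: tgttggagagcaAATAAATAAAcgcattca

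The probes were 60 bases long, and their share of G and C ran from 36.7% in Slpi to 53.3% in Serpina3n, with a median of 48.3%. The median over the 1183 probes named in the study's lists was 40%. The authors' annotation marked the Serpina1b probe as also matching the Serpina1e transcript, so its signal may include Serpina1e RNA. The second transcript marked for the Serpina11 probe is another form of the same gene. No such mark was given for the other 5 probes.

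The listed transcripts lay within the genes of the same name in the RefSeq annotation of GRCm38.p6, allowing 1 base at each end. On chromosome 12, Serpina1b (103728156 to 103738189), Serpina1e (103946931 to 103956897) and Serpina11 (103980243 to 103989968) run on the minus strand. Serpina3i (104263045 to 104269509) and Serpina3n (104406646 to 104414334) run on the plus strand. Serpinb6d lies at 33661405 to 33671585 on the plus strand of chromosome 13, and Slpi at 164354070 to 164356507 on the minus strand of chromosome 2. The outermost of the chromosome 12 genes span 686 kb, in which RefSeq places 24 genes with a Serpina symbol, 19 of them protein-coding. The lists name 6 of the 24, including the pseudogene Serpina3e-ps, and 14 coding Serpina genes of the span, among them further near copies of Serpina1b, were not analysed here.

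The upstream sequences of the 7 genes were compared with each other as a description, in the reference genome only. In the 250 bases before the start of transcription given by RefSeq, Serpina1b and Serpina1e shared an unbroken run of 69 bases, which is written in capitals. It begins 69 bases before the Serpina1b start and 121 bases before the Serpina1e start, both read on the minus strand of GRCm38.p6, at chr12:103738190-103738278 and chr12:103956898-103957038. The run reaches the Serpina1b start, where the compared bases end, so any shared bases beyond it were not counted.
Serpina1b: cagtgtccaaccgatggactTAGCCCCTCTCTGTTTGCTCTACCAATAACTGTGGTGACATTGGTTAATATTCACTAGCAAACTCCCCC
Serpina1e: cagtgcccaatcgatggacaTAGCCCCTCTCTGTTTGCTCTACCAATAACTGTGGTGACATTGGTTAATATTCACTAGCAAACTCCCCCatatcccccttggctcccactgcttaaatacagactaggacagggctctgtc

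In the other 20 pairs of genes the longest shared run was 6 to 15 bases, with a median of 8. The longest of these, 15 bases, joined Serpina3i and Serpina3n. The motif TTCNNNGAA, the core that STAT factors bind, was found on either strand upstream of Serpina11 and Serpina3i, 2 of the 7 genes, and in 7.02% of 32851 promoters in the table. The motif TATAAA was found upstream of none of the 7, against 12.4% of all promoters. A match of letters is a description of the sequence alone.

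All values below are normalized signals on the log2 scale, where a difference of 1 is a doubling. Intensities under 5 were set to 5, which puts the floor at 2.32, and signals of different probes cannot be compared with each other. The Feature Extraction software flags a spot as well above background or not, and the C57BL/6 arrays had 33045 to 36162 such probes, against 29301 to 33350 on the DBA/1 arrays. In the scanner files the array barcode began with 1 for all C57BL/6 arrays and with 2 for all DBA/1 arrays. This was read as the row on the slide, so strain and row cannot be told apart. Values are the mean ± SD of 4 mice, and differences are DBA/1 minus C57BL/6 with the standard error of limma's fit. Their precision is limited by the number of arrays.

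Serpinb6d was lower in DBA/1 brainstem and the other 6 of the 7 genes were higher, and for each gene the values of the strains did not overlap. Values that did not overlap were seen for 11.4% of the 31872 tested probes with a value in all mice. The study's thresholds, a fold change of 2 and an unadjusted p under 0.05, were applied here to the p of limma's fit. By them 1.05% of the 33111 tested probes were higher in DBA/1 and 3.31% were lower. With the adjusted p under 0.05 these shares were 0.888% and 2.94%. The 7 genes were inside both criteria, which follows from their choice.

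**Figure D1:**
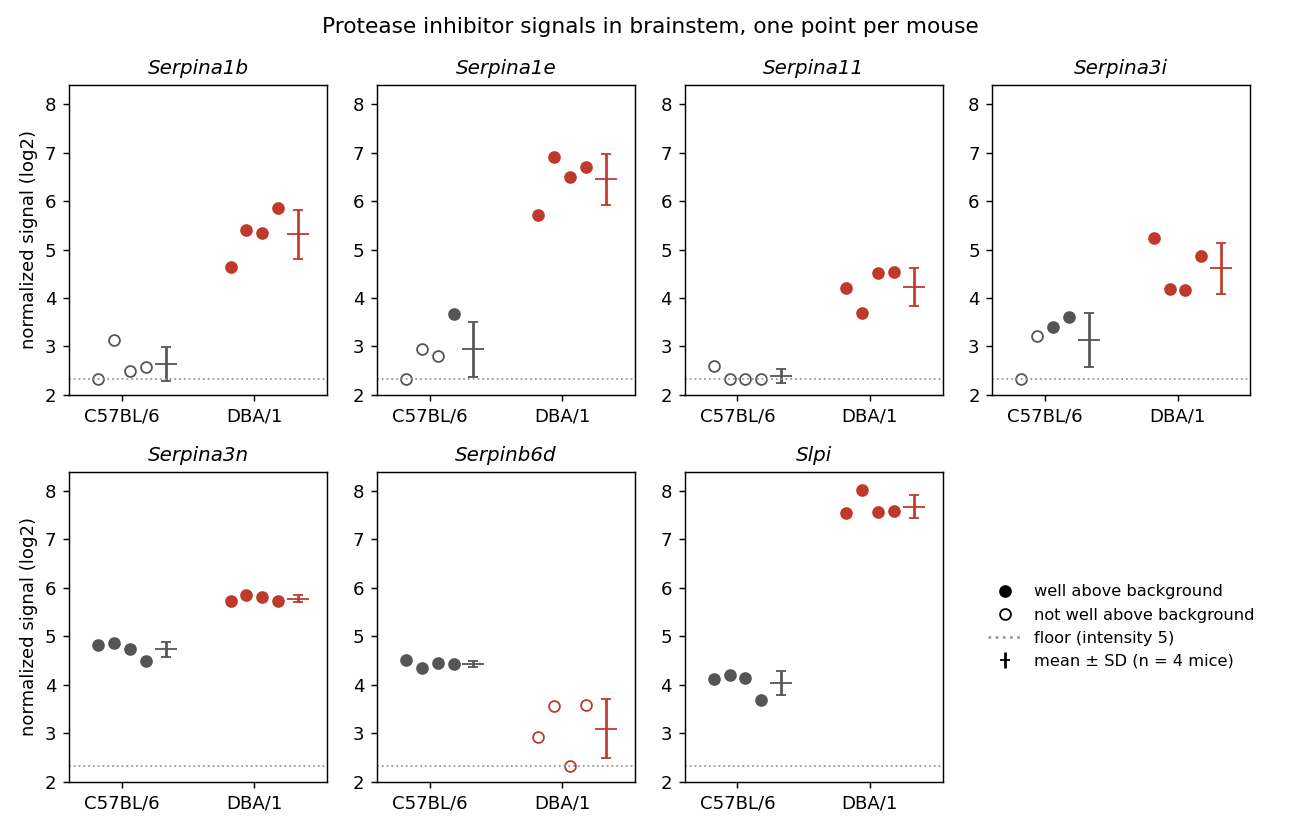
Normalized log2 signal of each probe in each mouse, C57BL/6 in grey and DBA/1 in red, with the mean ± SD of 4 mice per strain. Filled points are well above background, open points are not, and the dotted line is the floor. In every panel the strains are separate, and the open points belong to C57BL/6 except for Serpinb6d, where all 4 DBA/1 mice are open.

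Slpi and Serpina1e had the largest differences of the 7 genes. The Slpi difference was the larger as reported, but that of Serpina1e was larger without the floor (3.69 against 3.64), without C57BL/6 mouse 4 (3.76 against 3.53) and without DBA/1 mouse 1 (3.76 against 3.69), so no order is given. The Slpi signal was 7.54, 8.03, 7.56 and 7.59 in DBA/1 mice 1 to 4 and 4.11, 4.20, 4.15 and 3.68 in C57BL/6 mice 1 to 4. All DBA/1 mice stood well over all C57BL/6 mice, with a gap of 3.34 between the nearest ones. The strain means were 7.68 ± 0.23 and 4.04 ± 0.24, a difference of 3.64 (SE 0.19) or 12.5-fold. The Slpi spot was well above background on all 8 arrays, at 123 to 230 units of intensity in DBA/1 and 17 to 20.9 in C57BL/6. With Serpina3n it was one of 2 genes seen on every array.

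Within the chromosome 12 group the Serpina1 genes had the largest measured differences. Serpina1e, an alpha-1 antitrypsin form, gave 5.71, 6.91, 6.49 and 6.71 in DBA/1 mice 1 to 4 and 2.32, 2.95, 2.81 and 3.68 in C57BL/6 mice 1 to 4. The lowest DBA/1 mouse lay 2.03 over the highest C57BL/6 mouse. The means of 6.45 ± 0.53 and 2.94 ± 0.56 differed by 3.51 (SE 0.31), 11.4-fold. In C57BL/6 only mouse 4 was well above background and mouse 1 was at the floor, so the C57BL/6 mean rests on 1 measured mouse. With the other 3 mice raised to the strongest signal on their array that was not flagged as well above background, a reading added after the values were seen, the difference was at least 2.96 or 7.77-fold.

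Serpina1b, the paralog whose probe also matches Serpina1e, gave 4.64, 5.41, 5.35 and 5.86 in DBA/1 and 2.32, 3.13, 2.50 and 2.57 in C57BL/6. It was well above background in all DBA/1 mice and in none of the C57BL/6 mice. The means were 5.32 ± 0.50 and 2.63 ± 0.35, a difference of 2.69 (SE 0.26). Because C57BL/6 has no measured level, the difference is also given as a bound, at least 3.93-fold. The bound counts each C57BL/6 array with the probe's own value or, where this is higher, the strongest signal that the software did not flag as well above background there. Taking instead the weakest signal that was flagged, the bound was at least 5.14-fold. The signal was 0.997 to 4.04 times the software's error of the spot in C57BL/6 and 6.19 to 9.36 times in DBA/1.

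Mouse 1 had the lowest signal of both Serpina1 genes among the DBA/1 mice. Over all 8 mice, deviations from the strain mean of these genes correlated with r = 0.61, as a description of 8 values from probes that may read 1 transcript in common. How much of the Serpina1b signal came from Serpina1e RNA was not tested.

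Serpina11, a less studied clade A serpin that lies next to Serpina1e among the chosen genes with 23.3 kb between them, was well above background in DBA/1 only. Its values were 4.21, 3.69, 4.51 and 4.53 in DBA/1 and 2.60, 2.32, 2.32 and 2.32 in C57BL/6. Of the C57BL/6 mice 3 were at the floor and none was well above background, while all 4 DBA/1 mice were. The measured means were 4.23 ± 0.39 and 2.39 ± 0.14 and differed by 1.84 (SE 0.21). As a bound it was at least 1.85-fold higher in DBA/1, or at least 2.42-fold with the weakest flagged signal as the limit, so whether it reached 2-fold depends on the limit. Without the floor the measured difference was 2.67.

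Serpina3i, one of the many mouse copies related to alpha-1 antichymotrypsin, gave 5.23, 4.19, 4.16 and 4.87 in DBA/1 and 2.32, 3.21, 3.41 and 3.60 in C57BL/6. All DBA/1 mice were well above background, as were C57BL/6 mice 3 and 4, and with mice 1 and 2 raised in the same way as for Serpina1e the difference was at least 1.09. The nearest mice of the strains were 0.55 apart, the smallest gap of the 7 genes. The means of 4.61 ± 0.53 and 3.14 ± 0.57 differed by 1.48 (SE 0.31).

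Serpina3n, the astrocyte-associated serpin, had the smallest difference but the tightest DBA/1 values. They were 5.73, 5.85, 5.82 and 5.72, against 4.82, 4.86, 4.74 and 4.50 in C57BL/6, and all 8 spots were well above background. The means were 5.78 ± 0.07 and 4.73 ± 0.16, which differed by 1.05 (SE 0.16). The nearest mice were 0.86 apart, so that a gene just over 2-fold was still separated by more than the whole range within either strain, 0.13 and 0.36. Without C57BL/6 mouse 4 the difference was 0.97, under the 2-fold limit.

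Serpinb6d ran the other way. Its C57BL/6 values, 4.51, 4.35, 4.44 and 4.42, were all well above background and had a range of 0.15. Its DBA/1 values were 2.93, 3.56, 2.32 and 3.58, none of them well above background and that of mouse 3 at the floor. The signal was 0.996 to 4.47 times the error of the spot in DBA/1 and 6.63 to 8.22 times in C57BL/6. The means of 4.43 ± 0.06 in C57BL/6 and 3.10 ± 0.60 in DBA/1 differed by -1.33 (SE 0.26). As a bound Serpinb6d was at least 1.45-fold lower in DBA/1, or at least 2.02-fold lower with the other limit.

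**Figure D2:**
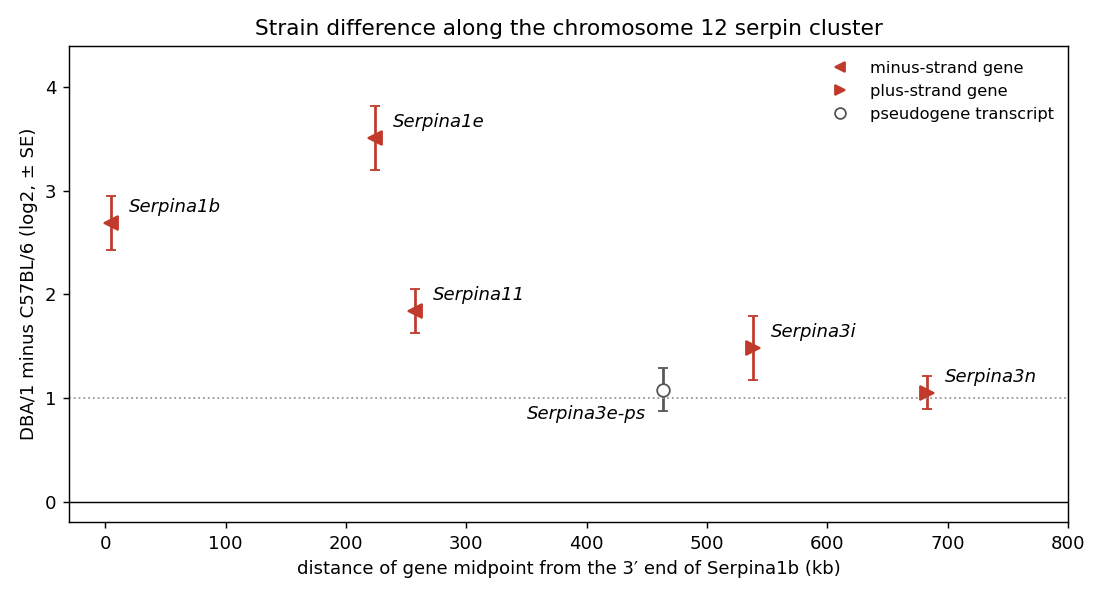
Difference between the strains, DBA/1 minus C57BL/6 on the log2 scale with the SE of limma's fit, of the chromosome 12 genes against the distance of each gene's midpoint from the 3′ end of Serpina1b in kb. Arrowheads point along the strand, the open circle is the pseudogene Serpina3e-ps, and the dotted line marks 2-fold. The minus-strand genes on the left range from 1.84 to 3.51, and those on the right from 1.05 to 1.48.

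The chromosome 12 genes differed between the strains in one direction, by 1.05 to 3.51 with a median of 1.84, while Serpinb6d differed by -1.33 and Slpi by 3.64. The direction of the 5 genes was fixed by their choice. By position, the minus-strand genes Serpina1b, Serpina1e and Serpina11 had differences of 2.69, 3.51 and 1.84, against 1.48 for Serpina3i and 1.05 for Serpina3n on the plus strand. The differences of Serpina11 and Serpina3i lay closer together than the sum of their standard errors, and the bound for Serpina11, 0.89 on the log2 scale, was under both plus-strand values. Detection in C57BL/6 varied along the group, from none of the 4 mice for Serpina1b and Serpina11, 1 for Serpina1e and 2 for Serpina3i to all 4 for Serpina3n. Slpi was detected in all mice of both strains, and Serpinb6d was detected in all C57BL/6 mice and in no DBA/1 mouse. Tested probes had to be well above background on 4 or more arrays. Serpina1b, Serpina11 and Serpinb6d met this through the brighter strain alone, so their full detection there was fixed by the filter.

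One more listed transcript lay inside the span. Serpina3e-ps, a noncoding pseudogene transcript between Serpina11 and Serpina3i at 104189517 to 104192926, gave 4.90, 5.27, 5.58 and 5.69 in DBA/1 and 3.95, 4.32, 4.31 and 4.54 in C57BL/6. It was well above background in all 8 mice, and its means differed by 1.08 (SE 0.21). It was listed for its strain difference too, and how much of its signal came from RNA of the coding Serpina3 genes was not tested.

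From mouse to mouse within a strain the 7 genes showed no common order. Deviations from the strain means, over 8 mice, had correlations between pairs of genes from -0.65 to 0.81 with a median of -0.07, and 10 of 21 were above 0. Among the 10 pairs of chromosome 12 genes 4 were above 0, and the median was also -0.07. The highest value joined Slpi and Serpina3n, which lie on different chromosomes, and the lowest joined Serpina3i and Serpina3n, which are neighbours among the chosen genes. These correlations describe 8 arrays, with spots at the floor among them.

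Among 408 other named mRNA probes, the one most like each gene over the 8 mice was found by Pearson's r. It was Ubald2 for Serpina1b (r = 0.98), Gfra3 for Serpina1e (0.99), Lrrc66 for Serpina11 (0.99) and Defa17 for Serpina3i (0.90). It was Bricd5 for Serpina3n (1.00), 2010315B03Rik for Serpinb6d (0.98) and Cuedc1 for Slpi (1.00). These named probes were listed for a strain difference as well, so r contains that difference. After the strain means were taken out, the same pairs had r from 0.62 for Slpi and Cuedc1 to 0.92 for Serpina3n and Bricd5 and for Serpinb6d and 2010315B03Rik. Each partner was picked from 408 probes for its high r over the same 8 mice, so these values are no separate evidence of likeness.

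Of the listed genes that the authors' annotation assigns to serine-type endopeptidase inhibitor activity, 5 of 6 were higher in DBA/1 and are members of the group above. Of all 1445 probes past the unadjusted criterion, for lncRNAs and mRNAs together, 24.1% were higher. These 5 genes were chosen for their strain difference, so nothing is read from their direction. The 5 were Slpi, Serpina1e, Serpina1b, Serpina11 and Serpina3n. The sixth, Crim1, a transmembrane protein known for binding growth factors of the BMP family, was lower. Its 4 DBA/1 mice were all at the floor and its C57BL/6 mean was 5.63 ± 0.24, so it was at least 3.32-fold lower, or at least 5.54-fold with the weakest flagged signal as the limit. Serpina3i and Serpinb6d do not carry this annotation in the lists.

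Listed genes annotated as serine-type endopeptidases, the class of enzyme that such inhibitors block, were lower in DBA/1 for all 6 probes. Of all 1445 probes past the unadjusted criterion, for lncRNAs and mRNAs together, 75.9% were lower, so nothing is read from this direction. The 6 were the kallikreins Klk1b9, Klk1b3, Klk1b8 and Egfbp2, neighbours within 252 kb on chromosome 7, the secreted protease Htra3 and the granzyme Gzmb of cytotoxic lymphocytes. Their measured differences ran from -2.20 to -1.06, and 4 of them passed the adjusted criterion in limma. Klk1b9 had the largest, with 4.08 ± 0.47 in DBA/1 and 6.29 ± 0.19 in C57BL/6. No DBA/1 mouse had Klk1b3 or Klk1b8 well above background, and as bounds these were at least 1.16-fold and 1.05-fold lower, or 1.94-fold and 1.62-fold with the weakest flagged signal as the limit. The values of Gzmb and Klk1b8 overlapped between the strains. The lists hold only genes picked for a strain difference on these arrays, so these counts say nothing of annotated genes that were not listed.

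The makeup of the tissue could not be read from these lists. Of 37 marker genes for liver or plasma proteins, blood, neutrophils, choroid plexus, meninges, reactive astrocytes, microglia and serotonergic neurons, 2 had a named mRNA probe, both of them serotonergic and both listed because they differed between the strains. Tph2, the rate-limiting enzyme of serotonin synthesis in brain, was 11.11 to 11.60 in DBA/1 and 9.38 to 10.73 in C57BL/6. The serotonin receptor Htr5b was 6.90 to 8.29 in DBA/1 and 5.14 to 7.14 in C57BL/6, with values that overlapped between the strains. The part of these cells in the inhibitor differences was not tested.

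**Figure D3:**
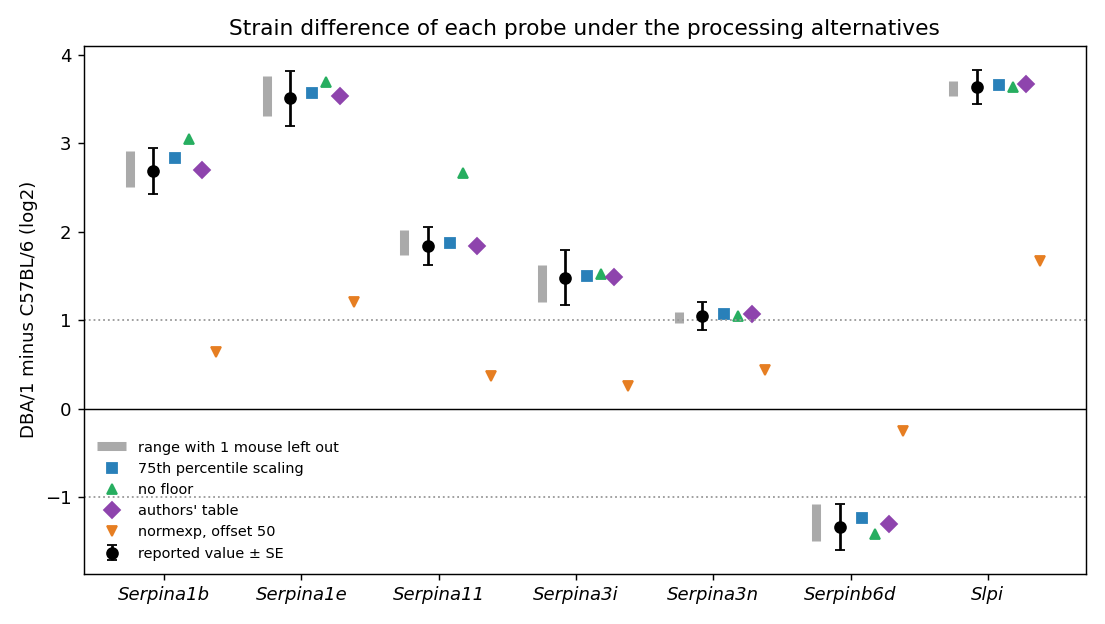
Difference between the strains, DBA/1 minus C57BL/6 on the log2 scale, for each gene as reported (black, ± SE), with 1 mouse left out (grey range) and under 4 other ways of processing. The dotted lines mark 2-fold. All points of a gene lie on one side of 0, and the values with normexp lie nearest to 0.

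The sizes of these differences depend on how low signals are treated. The normexp background correction was run on the median signal of the spots with an offset of 50. For scale, 46 of the 56 intensities behind the reported values of these probes were under 50, though those are another measure of the spots. With normexp the differences were smaller in all 7 genes. There, the differences of Slpi and Serpina1e were 1.67 and 1.21 and those of the other 5 genes were under 2-fold, from 0.26 for Serpina3i to 0.64 for Serpina1b in the genes that were higher and -0.25 in Serpinb6d.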

How the data were processed

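The authors hybridized brainstem RNA of 8 mice, 4 per strain, to one-color arrays after rRNA removal and random-primed labelling. The deposited scanner files hold spot intensities from Agilent Feature Extraction 11.0.1.1, background-corrected and not normalized between arrays, with outlier and above-background flags. The authors' table holds log2 values after quantile normalization, and the log2 values computed here with outlier spots kept differed from it by at most 0.0771.

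Here spots flagged as outliers were dropped, 5 was taken as the floor of the intensities, and arrays were quantile-normalized and fitted with limma 3.58.1 in R 4.3.3. Tested were 33111 probes, well above background on 4 or more arrays, with values in both strains and at least 3 in all. The fit was tested on simulated data. Members and lists were chosen with earlier results of these data known. Named besides the members were listed probes with a Serpin symbol or inside the chromosome 12 span, listed genes annotated as serine-type inhibitors or peptidases, the markers, and the probe most like each member. Gene names and probe sequences came from the study's lists, positions and promoters from RefSeq GRCm38.p6. Alternatives were other scalings, floors and filters, the authors' table, outlier spots kept, normexp, an unpaired test without moderation, a replicate block and each mouse left out. Limits for dim spots of Serpina1e and Serpina3i were added after the data were seen.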

Additional observations from a re-analysis of the deposited data

Results flagged for a closer look

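Among the 14 sets of 4 mice, 1 per gene and strain, Slpi had a mouse far from the other 3 in both strains, at 8.03 in DBA/1 mouse 2 and at 3.68 in C57BL/6 mouse 4. Chance gives about 1 such mouse in 20 sets. Before normalization DBA/1 mouse 2 also had the highest Slpi intensity of its strain, 230. C57BL/6 mouse 4, at 19, lay inside the range of its strain, 17 to 20.9. Its array had the highest 75th percentile of intensity in C57BL/6, 109. There Serpina3n had its highest C57BL/6 intensity, 34, but its lowest normalized signal, 4.50. How much of the low Slpi value came from the scaling of this array was not tested. Serpina11 was also flagged in C57BL/6, at 2.60 in mouse 1, but the other 3 mice were set to the floor, so any value over the floor would be flagged there.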

How the results depend on the processing

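The difference of each gene kept its direction under all alternatives that gave a value, and 106 of 114 alternative values lay within 1 SD of the reported one. Some of the 106 could not differ from the reported value. These came from dropping the filter on dim probes, from requiring probes well above background on all arrays and from the replicate block. Raising the C57BL/6 mice of Serpina1e that were not well above background to the limit, which was added after the data were seen, gave 2.96. Of the 114, the 8 farther away were Serpina11 without the floor (2.67) and all 7 genes with normexp: Serpina1b 0.64, Serpina1e 1.21, Serpina11 0.37, Serpina3i 0.26, Serpina3n 0.44, Serpinb6d -0.25 and Slpi 1.67. With 1 mouse left out the differences ranged from 2.51 to 2.91 for Serpina1b, 3.31 to 3.76 for Serpina1e, 1.74 to 2.02 for Serpina11, 1.21 to 1.63 for Serpina3i, 0.97 to 1.09 for Serpina3n, -1.49 to -1.07 for Serpinb6d and 3.53 to 3.70 for Slpi.

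Of the 7 genes, 2 passed either criterion with normexp (Slpi and Serpina1e), and 2 could be tested and passed when probes had to be well above background on all arrays (Slpi and Serpina3n). With 1 mouse left out 6 or 7 passed, and 6 only without C57BL/6 mouse 4. Under an unpaired test without moderation 5 passed the adjusted criterion, and so did 5 in a separate limma fit without the filter on dim probes. Each time the genes that did not pass were Serpina3i and Serpinb6d. Over all tested probes, 1445 met the unadjusted and 1268 the adjusted criterion, against 377 and 328 with normexp and 684 and 632 with the stricter filter, and 1405 to 1671 and 1111 to 1397 with 1 mouse left out. Without the filter on dim probes 921 met the adjusted criterion. The normexp offset is added to all intensities and so shrinks the folds of dim probes by its construction.

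The lower bounds of Serpina11 and Serpinb6d were 1.28 and 1.02 on the log2 scale with the weakest signal flagged as well above background as the limit, against 0.89 and 0.54. The replicate numbers were not shown to pair the mice. Deviations of same-numbered mice correlated by 0.376, 0.0214, 0.135 and 0.350, and those of unlike numbers by -0.289 to 0.102. C57BL/6 mice 1, 3 and 4 correlated best with the DBA/1 mouse of their own number, and mouse 2 did not. With the replicate block 1451 probes met the unadjusted and 1324 the adjusted criterion, and all 7 genes passed.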
